A study of Canis lupus familiaris with 55 samples.

Results

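The youngest control gonads of this series of canine embryos were 2 pooled samples of gestational day 34 (d34): an XY pool of 7 gonad pairs and an XX pool of 6 gonad pairs, among 55 samples in all. Single gonads of that age were too small for a library each, so that embryos of 1 sex, assigned by a PCR assay for *SRY*, were combined before RNA extraction. Both pools came from normal litters without the *SRY*-negative XX disorder of sex development (DSD) studied in the rest of the series. Their breed is given as a Beagle and Labrador retriever mix in the deposited description and as beagle in the study's methods. Genes were taken from the 58781 loci of a transcript assembly: 18513 loci had 1 gene name that no other locus held, and 8819 of these reached 4 FPKM (fragments scaled to transcript length and to library size) in at least 1 pool. There was 1 library a side, so the XY over XX ratio at d34 has no replicate error and no test. It is given as log2((XY + 1)/(XX + 1)) of the FPKM values, a scale that understates the ratio of low genes.

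The pools were set beside libraries of single embryos that the d34 ratio did not use: 6 XY and 6 XX controls of d37-39 (3 of each sex at d37 and 3 at d39, 1 litter per day), and 3 XY and 3 XX controls of d44 from 1 litter. The nearest age, d35, was represented only by the DSD pedigree, with 4 XY littermates that carry the pedigree's insertion and form testes, and 9 XX embryos at risk of DSD; those 9 are no normal ovaries. In bulk gonads, fewer cells of a type and less RNA per cell cannot be told apart.

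In mammals the early gonad can become a testis or an ovary. In XY embryos *SRY* switches on *SOX9* in supporting cells, which become Sertoli cells, form cords and secrete anti-Müllerian hormone, and Leydig cells then arise between the cords and make androgens. In XX embryos RSPO1 and WNT4 keep beta-catenin signalling active in the supporting cells, which become FOXL2-positive pre-granulosa cells. The comparison asks how far these programs had parted at d34.

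Each pool carried the sex on its label. *XIST*, the RNA that coats the inactive X, was at 0.0382 FPKM in the XY pool and 337.7 FPKM in the XX pool. A 126 bp locus of CFA26 that carries the name *TMSB4X* was at 370.4 FPKM in the XY pool and listed at 0 in the XX pool. That short autosomal locus separated the sexes across the series, with 79.8 to 753 FPKM in 22 XY libraries and 0 to 8.08 FPKM in 33 XX libraries, although the X-linked gene of that name lies elsewhere. *XIST* did not separate them fully. It ranged from 0 to 8.47 FPKM in XY libraries, the highest being a control of d37. In XX libraries it ranged from 5.52 to 338 FPKM, the lowest being an embryo at risk of d35.

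The XY pool was shallower and less like the other libraries than the XX pool. By the commonest low value of long single-transcript loci, 1 read was worth 2.22 times as much FPKM in the XY pool as in the XX pool in the annotated table, and a 2 kb transcript at 4 FPKM rested on about 53.0 reads in the XY pool and 135 reads in the XX pool, a counting error of about 13.7% and 8.60%. Over the 8819 loci the Pearson correlation of log2(FPKM + 1) with the single-embryo libraries had a median of 0.847 for the XY pool and 0.903 for the XX pool, and that of the pools with each other was 0.897. Pairs of libraries within the other groups had 0.900 to 0.992, with a median of 0.976. By group, the XY pool had higher medians with XX controls (0.878 at d37-39, 0.884 at d44) than with XY controls (0.863 and 0.852). The XX pool had 0.938 and 0.926 with XX controls, against 0.874 and 0.866 with XY controls.

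The XY pool also stood apart by genome position. The median log2 ratio over the 8819 loci was 0.20 and not 0, and it went with the number of named genes within 0.5 Mb on either side. It was -0.02 in the quintile of loci with the fewest neighbours and 0.55 in the quintile with the most. The same quintiles had medians of 0.02 and -0.03 for XY over XX group means at d37-39, and of 0.01 and -0.14 at d44. Compared with the mean of its own sex at d37-39, the XY pool again had -0.01 and 0.56 in these quintiles, whereas the XX pool had 0.04 and -0.00. By chromosome the d34 median was highest on CFA20, at 0.59 over 412 loci, and lowest on CFA23, at -0.15 over 153 loci. The part of this shift in the single ratios below was not tested.

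**Figure D1:**
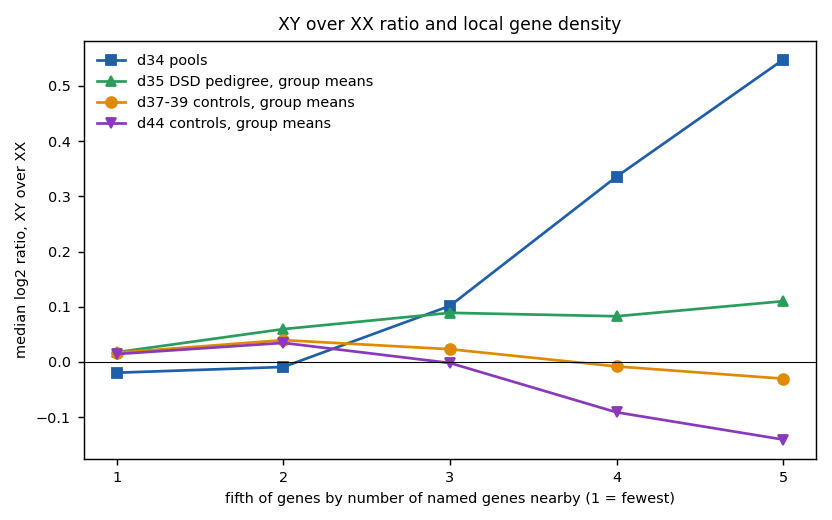
Median log2 ratio of XY over XX (vertical axis) in quintiles of the 8819 named loci ordered by how many named genes lie within 0.5 Mb (horizontal axis, fewest to most), for the d34 pools and for group means at 3 later ages. The line of the d34 pools climbs to 0.55 in the densest quintile, while the d37-39 and d44 lines stay between -0.14 and 0.04 and the d35 line of the DSD pedigree between 0.02 and 0.11.

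A log2 ratio of at least 1 in size was seen for 990 loci higher in the XY pool (11.2% of 8819) and 179 lower (2.03%). Such ratios were thus XY-higher in 84.7% of cases, a split that moved with the scaling: 565 higher and 363 lower after centring on the median ratio, 552 and 282 after centring within bins of gene density, 968 and 475 in the annotated table (11297 genes), and 1827 and 1043 over all loci, unnamed ones included. Just inside the limit a ratio was 1.00024, and just outside it 0.999997. As a measure of how far single libraries differ, 18 pairs of same-sex controls from 1 litter and day had 0.532% to 4.92% of their named loci 2-fold apart, and 27 XY and XX pairs of 1 litter and day 7.82% to 17.3%. The d34 pools had 13.3%. Each pool averages over 6 or 7 embryos, so the same-sex pairs are no error of the pools.

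Among the 15 loci most in favour of the XY pool, once those under 300 exon bases were set aside, 4 were on the Sertoli and testis list: *INHBB*, *SOX10*, *SOX9* and *ERBB3*. With all lengths kept, 10 of the 15 highest ratios fell on such short loci, as did 13 of the 15 lowest, and each of these was listed at 0 in the pool with the lower value. Several are genes of small nucleolar RNA or microRNA, which a poly-A library samples poorly. Setting them aside was chosen after their values were seen. The longer loci were led by *GATM*, an enzyme of creatine synthesis, at 186 FPKM in the XY pool and 4.39 FPKM in the XX pool (log2 ratio 5.12). The next was *INHBB*, the beta B subunit of activin and inhibin, followed by *SCRG1*, *SOX10*, *PLEKHB1* and *COL9A1*. The other members of the 15 were *PRSS56*, *SOD3*, *NPY*, *TMEM229B* and 3 loci without a symbol, beside *SOX9* and *ERBB3*.

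*SOX9*, the transcription factor that starts Sertoli cell differentiation, lies at chr9:8275049-8280390 on the plus strand (canFam3 coordinates of the assembly). It was at 56.0 FPKM in the XY pool and 2.81 FPKM in the XX pool, a log2 ratio of 3.90. At d37-39 it ranged from 66.2 to 92.8 FPKM with a median of 69.4 in XY controls, and from 1.90 to 4.06 FPKM with a median of 3.01 in XX controls. At d44 it was 53.6, 58.9 and 61.6 FPKM in XY controls and 3.87, 4.28 and 3.73 FPKM in XX controls. The XY pool thus lay just below the range of XY controls at d37-39 and inside that of d44, and the sexes did not overlap at either age (limma log2 fold change 4.28, SE 0.15, adjusted p = 6.9e-10 at d37-39). *SOX10*, a relative of *SOX9* best known from neural crest, was at 29.8 FPKM in the XY pool and 0.341 FPKM in the XX pool. Its level in single XY embryos was lower, at 7.28 to 15.98 FPKM at d37-39, against 0.0696 to 0.559 FPKM in XX controls. *DMRT1*, a factor that keeps Sertoli cells male in adult mice, was already present in both pools, with 55.9 FPKM in the XY pool and 15.7 FPKM in the XX pool, and lower in later controls, at 16.9 to 22.0 FPKM in XY and 3.27 to 6.19 FPKM in XX controls of d37-39.

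*AMH*, the hormone that removes the Müllerian ducts, was read from the annotated table, in which it was at 850 FPKM in the XY pool and 19.4 FPKM in the XX pool (log2 ratio 5.38). At d37-39 it ranged from 2419 to 6269 FPKM in XY controls and from 7.90 to 17.3 FPKM in XX controls. At d44 it was 6111, 4499 and 4430 FPKM in XY controls, against 7.73, 8.32 and 7.08 FPKM in XX controls. The XY pool was thus below every XY control of both later ages and far above every XX library. *INHBB* was at 65.6 FPKM in the XY pool and 1.29 FPKM in the XX pool, and at 118 to 218 FPKM in XY controls and 0.575 to 5.40 FPKM in XX controls of d37-39. *ERBB3*, a receptor for neuregulins, was at 19.0 FPKM in the XY pool and 1.31 FPKM in the XX pool, and at 63.2 to 78.0 FPKM in XY controls and 2.04 to 3.58 FPKM in XX controls of d37-39.

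**Figure D2:**
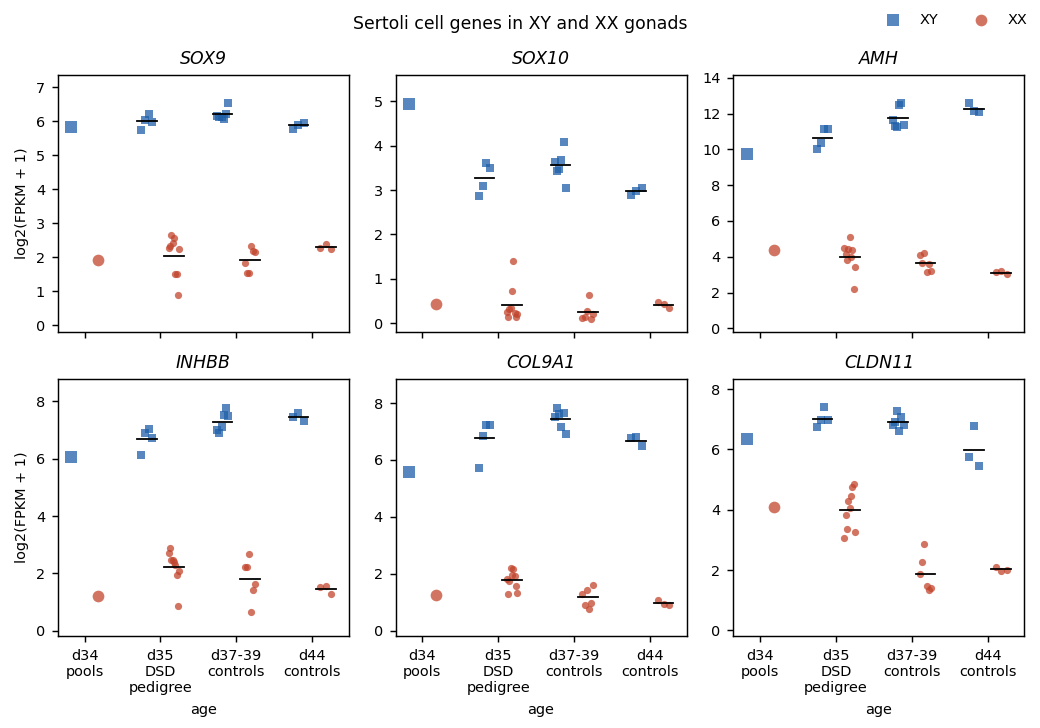
Levels of 6 Sertoli cell genes as log2(FPKM + 1) (vertical axes) by age (horizontal axes), with 1 point per library, XY as squares left of XX as circles, and a black bar at the group mean of log2 values. The large points are the d34 pools. All 6 genes are higher in the XY pool, and *SOX10* is higher there than in any later XY library.

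Of the 25 genes of the Sertoli and testis list, 22 had a locus and 16 reached 4 FPKM in a pool; 7 of the 16 were 2-fold higher in the XY pool and 0 lower, also after centring on the median ratio. These were *SOX9*, *SOX10*, *DMRT1*, *AMH*, *INHBB*, *ERBB3* and *HSD17B3*. The median log2 ratio of the 16 was 0.89, beside 0.20 over all loci. At d37-39, 11 of 19 tested members were called higher in XY controls and 1 lower, where a call needs an adjusted p under 0.05, means of the sexes 2-fold apart and a mean of 4 FPKM or more in either sex. Over all 21171 loci tested at d37-39, 733 were called higher (3.46%) and 510 lower (2.41%). The neural list, which shares *SOX10*, summed to 112 FPKM in the XY pool and 87.1 FPKM in the XX pool. *SOX10* itself, at 29.8 and 0.341 FPKM, had a larger gap than these sums, so they are no separate measure of neural cells. The part of such cells in the *SOX10* value was not tested.

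Other genes of the cords were higher in the XY pool as well. *COL9A1*, a collagen chain, was at 47.2 FPKM in the XY pool and 1.36 FPKM in the XX pool, and went to 120 to 228 FPKM in XY controls of d37-39, against 0.712 to 2.01 FPKM in XX controls. *CLDN11*, the tight junction protein of Sertoli cells, was at 80.5 FPKM in the XY pool and 16.2 FPKM in the XX pool. At d37-39 XY controls had 97.6 to 155 FPKM, and XX controls, at 1.55 to 6.25 FPKM, were below the XX pool. Of the 12 cord and basement membrane genes over 4 FPKM, 6 were 2-fold higher in the XY pool and 0 lower, with a median log2 ratio of 0.95; over all loci the shares were 11.2% higher and 2.03% lower, and the median 0.20. Over all loci 6.41% were 2-fold higher after centring. After centring 4 remained, *COL9A1*, *CLDN11*, *LAMA5* and *HSPG2*, so that the type IV collagen genes *COL4A1* (124 FPKM in the XY pool, 54.4 FPKM in the XX pool) and *COL4A2* (109 and 52.4 FPKM) rest on the scaling. *LAMA5*, a laminin chain, did not stay XY-higher: it was at 41.6 FPKM in the XY pool and 16.2 FPKM in the XX pool, and had a log2 fold change of -0.92 at d37-39, which was not called.

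Most of a second group of testis genes were under 2-fold apart at d34 on the scale used here. Of these, *MRO* and *FATE1* were under 4 FPKM in both pools, so their ratios rest on low values. *CLU*, which encodes the secreted chaperone clusterin, was at 106 FPKM in the XY pool and 91.1 FPKM in the XX pool. At d37-39 it ranged from 1322 to 2013 FPKM in XY controls and from 110 to 155 FPKM in XX controls, a log2 fold change of 3.67 (SE 0.12, limma adjusted p = 6.5e-10). At d44 it was 1454, 1440 and 1359 FPKM in XY controls, against 146, 157 and 163 FPKM in XX controls. The XY pool was thus below the lowest of the later XX controls and far below every later XY control. *MRO*, a gene of male fetal gonads in mice, was at 3.94 FPKM in the XY pool and 2.92 FPKM in the XX pool, and at 23.8 to 42.9 FPKM in XY controls and 0.645 to 2.01 FPKM in XX controls of d37-39. *FATE1*, an X-linked testis gene, was at 0.434 FPKM in the XY pool and 0.120 FPKM in the XX pool, and at 10.5 to 30.7 FPKM in XY controls and 0.0490 to 1.36 FPKM in XX controls of d37-39. *HSD17B3*, which turns androstenedione into testosterone, was the exception: it was at 4.94 FPKM in the XY pool and 0.273 FPKM in the XX pool, against 49.0 to 68.5 FPKM in XY controls and 0.0516 to 0.265 FPKM in XX controls of d37-39. *GJA1*, the gap junction protein connexin 43, was at 50.5 FPKM in the XY pool and 27.4 FPKM in the XX pool, and at 315 to 679 FPKM in XY controls and 78.6 to 189 FPKM in XX controls of d37-39.

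Apart from *HSD17B3*, the genes of androgen synthesis given next were under 2-fold apart between the pools. *HSD3B1*, *HSD3B2* and *POR* had no locus of their own name and were not analysed here. *STAR*, which carries cholesterol into mitochondria, was at 130 FPKM in the XY pool and 74.0 FPKM in the XX pool (log2 ratio 0.80). At d37-39 it ranged from 1542 to 3156 FPKM in XY controls and from 121 to 746 FPKM in XX controls. At d44 it was 3295, 4186 and 3851 FPKM in XY controls, against 175, 92.1 and 150 FPKM in XX controls. Both pools were thus below every later XY library, and the XY pool lay in the range of XX controls. *CYP17A1*, the enzyme that makes androgen precursors, was lower in the XY pool, at 93.1 FPKM, than in the XX pool, at 135 FPKM, and ranged from 2169 to 4163 FPKM in XY controls and from 192 to 1288 FPKM in XX controls of d37-39. *CYP11A1*, which cuts the cholesterol side chain, was at 23.3 FPKM in the XY pool and 19.9 FPKM in the XX pool, and at 298 to 555 FPKM in XY controls and 70.2 to 281 FPKM in XX controls of d37-39. *FDX1*, the electron donor of these enzymes, was at 54.8 FPKM in the XY pool and 60.5 FPKM in the XX pool, and *LHCGR*, the receptor for luteinizing hormone, was under 1 FPKM in both, at 0.291 and 0.422 FPKM. *NR5A1*, the nuclear receptor upstream of these genes, was at 82.7 FPKM in the XY pool and 65.3 FPKM in the XX pool in the annotated table, and the XY pool lay inside the range of XY controls of d37-39, 59.9 to 99.9 FPKM.

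Of the 10 Leydig and steroidogenesis genes over 4 FPKM in a pool, 3 were 2-fold higher in the XY pool (*INHA*, *SCARB1* and *NR4A1*) and 0 lower, and 2 of the 3 after centring, *SCARB1* being lost, beside 11.2% of all loci higher before centring and 6.41% after it. *INHA*, the inhibin alpha subunit that Sertoli cells also make, was at 168 FPKM in the XY pool and 71.0 FPKM in the XX pool. At d37-39 9 of 14 members tested were called higher in XY controls and 0 lower. Of these 9, 6 had been over 4 FPKM but under 2-fold at d34. Among the 380 named loci over 4 FPKM in a pool that were called higher at d37-39, 148 (38.9%) had been 2-fold higher in the XY pool, so most had not. At d44 806 of 19081 loci were called higher (4.22%) and 692 lower (3.63%), and of the Leydig list again 9 of 14 were called higher. *DLK1*, a membrane protein of fetal Leydig cells and their precursors, was at 1.53 FPKM in the XY pool and 0.817 FPKM in the XX pool, and at 25.1 to 127 FPKM in XY controls and 0.179 to 0.669 FPKM in XX controls of d37-39.

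**Figure D3:**
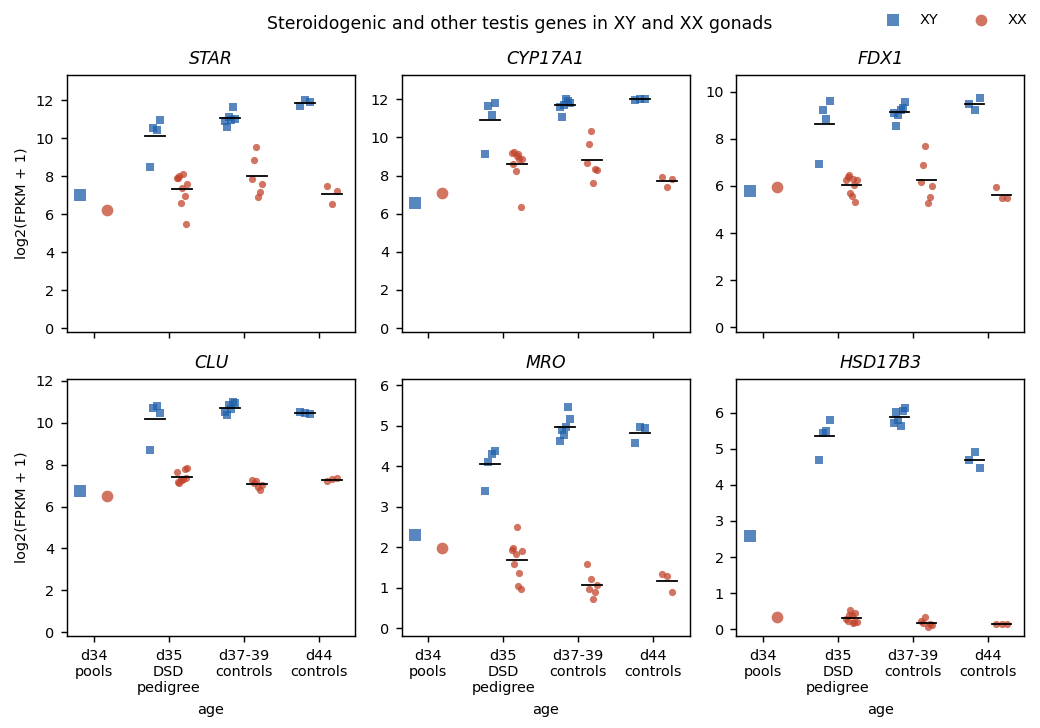
Levels of 6 testis genes as log2(FPKM + 1) (vertical axes) by age (horizontal axes), drawn with 1 point per library, XY as squares left of XX as circles, and a black bar at the group mean of log2 values. In the d34 pools *STAR*, *CYP17A1*, *FDX1*, *CLU* and *MRO* are under 2-fold apart, and only *HSD17B3* of the 6 is 2-fold higher in the XY pool.

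Several ovary genes, *RSPO1*, *WNT4* and *WNT2B* among them, were also under 2-fold apart at d34. *RSPO1*, the secreted activator of WNT signalling, lies at chr15:4850434-4877125 on the plus strand and was at 42.6 FPKM in the XY pool and 47.7 FPKM in the XX pool (log2 ratio -0.16). At d37-39 it ranged from 3.44 to 11.0 FPKM in XY controls and from 57.6 to 89.3 FPKM in XX controls, a log2 fold change of -3.10 (SE 0.21, limma adjusted p = 3e-07). At d44 it was 5.11, 5.48 and 4.05 FPKM in XY controls, against 106, 90.0 and 99.99 FPKM in XX controls. The XY pool was thus above all XY controls of d37-39 and d44, and below the lowest XX control of either age. *WNT4* was at 29.5 FPKM in the XY pool and 24.2 FPKM in the XX pool, and at 3.998 to 8.87 FPKM in XY controls and 27.6 to 40.4 FPKM in XX controls of d37-39. *WNT2B* was at 35.5 FPKM in the XY pool and 35.4 FPKM in the XX pool (a ratio that centring turns below 0), and at 6.27 to 9.98 FPKM in XY controls and 18.3 to 23.7 FPKM in XX controls of d37-39.

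Target genes of beta-catenin went with them. *NOTUM*, a secreted enzyme that inactivates WNT ligands, was at 84.5 FPKM in the XY pool and 71.4 FPKM in the XX pool. At d37-39 it was at 3.57 to 10.6 FPKM in XY controls and 66.3 to 90.9 FPKM in XX controls. *NKD1*, an intracellular feedback inhibitor, was at 34.5 FPKM in the XY pool and 47.3 FPKM in the XX pool, and at 2.205 to 6.33 FPKM in XY controls and 31.6 to 54.5 FPKM in XX controls of d37-39. For both genes the XY pool was above every XY control of d37-39, and the XX pool lay in the range of XX controls. *LEF1*, a factor that binds beta-catenin, was at 93.4 FPKM in the XY pool and 88.9 FPKM in the XX pool (below 0 after centring), and *AXIN2*, a further feedback inhibitor, at 31.8 and 39.7 FPKM; at d37-39 both were called lower in XY controls. *CCND1*, a cyclin, was the only target list member 2-fold apart at d34, at 53.2 FPKM in the XY pool and 18.4 FPKM in the XX pool, and had a log2 fold change of -0.18 at d37-39, which was not called. The median over the 11 targets over 4 FPKM was 0.12 at d34, and at d37-39 6 of 11 tested targets were called lower in XY controls and 1 higher, *TNFRSF19*.

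**Figure D4:**
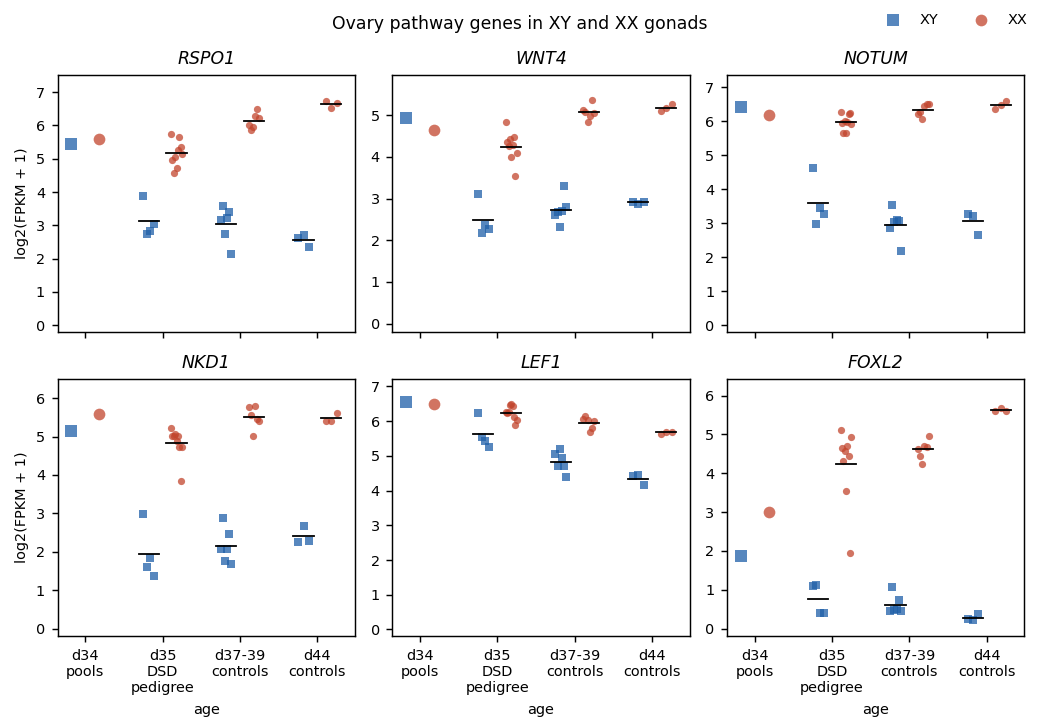
Levels of 6 ovary pathway genes as log2(FPKM + 1) (vertical axes) by age (horizontal axes), with 1 point per library; XY libraries are squares left of the XX circles, and black bars are group means of log2 values. For *RSPO1*, *WNT4*, *NOTUM*, *NKD1* and *LEF1* the XY pool sits beside the XX pool and above later XY controls, and *FOXL2* is low in both pools.

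*FOXL2*, the pre-granulosa transcription factor, was the only member of the ovary list 2-fold lower in the XY pool, at 2.68 FPKM against 6.95 FPKM in the XX pool (log2 ratio -1.11, and -1.27 in the annotated table). In the discovery table its name is held by more than 1 locus, and the value is that of the locus with the annotated transcript. At d37-39 XY controls were at 0.370 to 1.09 FPKM and XX controls at 17.9 to 30.4 FPKM. No XY control of d37-39 was thus as high as the XY pool, and no XX control as low as the XX pool. *IRX5*, a homeobox gene of the ovary in mice, was at 1.73 FPKM in the XY pool and 0.787 FPKM in the XX pool, and *FST*, which encodes the activin antagonist follistatin, at 2.17 and 3.72 FPKM, both under the 4 FPKM limit. Both were called lower in XY controls at d37-39. *EMX2*, a homeobox factor of the early gonad epithelium, was at 52.4 FPKM in the XY pool and 89.3 FPKM in the XX pool. *FZD1*, a WNT receptor, went the other way, at 30.2 FPKM in the XY pool and 4.96 FPKM in the XX pool, and was called higher in XY controls at d37-39 (6.65 to 11.6 FPKM, against 3.25 to 5.45 FPKM in XX controls).

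Of the 14 ovary list members over 4 FPKM, 1 was 2-fold higher and 1 lower in the XY pool, with a median log2 ratio of -0.08. At d37-39, 9 of 16 tested members were called lower in XY controls and 1 higher, and 6 of the 9 had been over 4 FPKM and under 2-fold at d34. Among the 308 named loci over 4 FPKM in a pool that were called lower at d37-39, 29 (9.42%) had been 2-fold lower in the XY pool, so most had not. Other genes of the RSPO and WNT receptor complex were at 15.9 FPKM in the XY pool and 28.6 FPKM in the XX pool for *LGR4*, 30.6 and 13.7 FPKM for *LRP5*, 16.2 and 15.6 FPKM for *LRP6*, and 14.8 and 7.11 FPKM for *ZNRF3*. *LRP5* was 2-fold apart in the discovery table (log2 ratio 1.10) and just not in the annotated table (0.99). *CTNNB1*, beta-catenin itself, was at 283 FPKM in the XY pool and 323 FPKM in the XX pool.

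**Figure D5:**
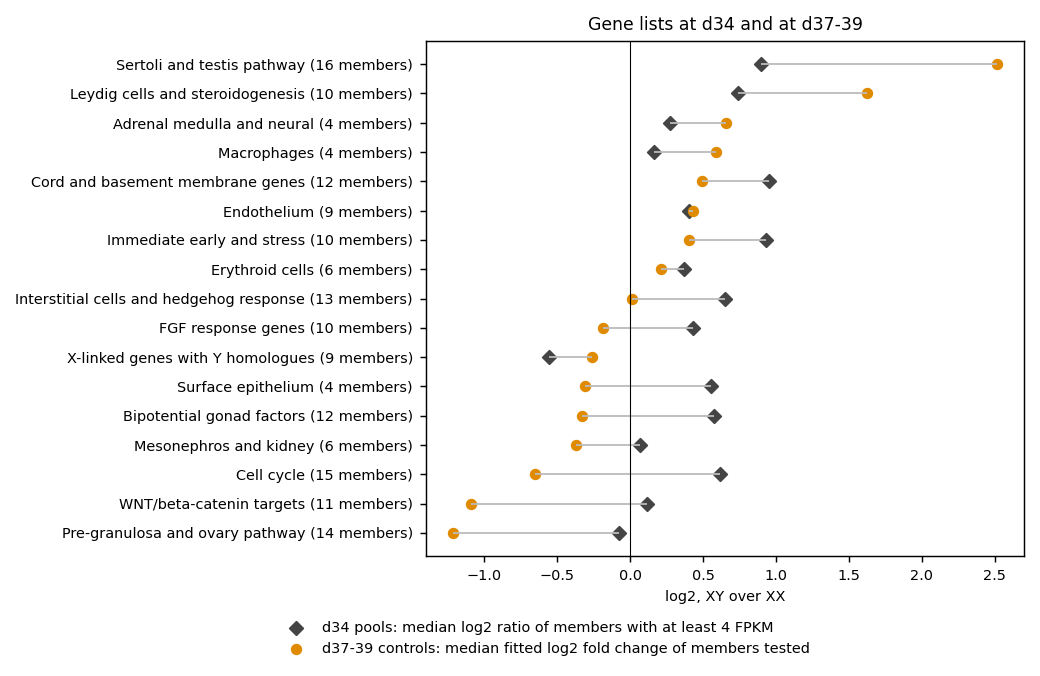
Median log2 of XY over XX (horizontal axis) for gene lists with at least 4 members over 4 FPKM (vertical axis, with that number of members), at d34 as diamonds and in the limma fit of d37-39 controls as circles. The ovary and WNT target lists are near 0 at d34 (medians -0.08 and 0.12) and below -1 at d37-39, and the Sertoli list is at 0.89 and 2.52. The d37-39 medians cover every list member tested there, also those under 4 FPKM in both pools. For the ovary list these are 16 members against 14 at d34, and for the Sertoli list 19 against 16. The medians of a list at the ages are thus not of the same genes throughout.

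Some hedgehog response genes were higher in the XY pool. Desert hedgehog from Sertoli cells signals to cells between the cords, where the receptor *PTCH1* is a target. *PTCH1* was at 26.1 FPKM in the XY pool and 8.34 FPKM in the XX pool (log2 ratio 1.54). At d37-39 it ranged from 16.8 to 21.7 FPKM in XY controls and from 5.03 to 9.71 FPKM in XX controls (log2 fold change 1.40, SE 0.13, limma adjusted p = 6.1e-06), and at d44 it was 20.6, 18.1 and 24.3 FPKM, against 6.35, 6.42 and 6.62 FPKM in XX controls. *GLI1*, the transcription factor target, was at 15.9 FPKM in the XY pool and 8.47 FPKM in the XX pool, under 2-fold apart. *PTCH1* was still 2-fold apart after centring, and *GLI2* and *COL1A1* were 2-fold apart only before it. The ligand *DHH* had no locus of its own and was not analysed here.

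Genes that define the early gonad of both sexes were expressed in both pools. *WT1* was at 102 FPKM in the XY pool and 98.5 FPKM in the XX pool, *GATA4* at 88.7 and 57.0 FPKM, and *LHX9* at 83.6 and 49.1 FPKM. *CBX2*, a Polycomb subunit needed for testis formation in mice and humans, was the only member of the 12 over 4 FPKM at 2-fold, with 26.1 FPKM in the XY pool and 12.5 FPKM in the XX pool (log2 ratio 1.00 in the discovery table and 0.84 in the annotated table). In later controls its direction was the other one, with 5.15 to 8.07 FPKM in XY controls and 9.99 to 13.6 FPKM in XX controls of d37-39 (log2 fold change -0.69, limma adjusted p = 0.00037, under 2-fold and so not called). *FGF9*, which supports Sertoli cell fate in mice, was at 4.83 FPKM in the XY pool and 4.39 FPKM in the XX pool. Of 10 FGF response genes, *SPRY4* alone was 2-fold apart, at 17.9 FPKM in the XY pool and 4.74 FPKM in the XX pool.

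Cell cycle genes had a median of 0.61, beside 0.20 over all loci, and their count of 2-fold ratios was near that of all loci (11.2% higher). The 2 of 15 members 2-fold higher in the XY pool were *TK1*, a thymidine kinase, at 107 FPKM in the XY pool and 40.7 FPKM in the XX pool, and *MCM2*, a DNA helicase subunit, at 94.7 and 41.6 FPKM. *TK1* was called lower in XY controls at d37-39, and after centring it was the only one of the 15 still 2-fold apart at d34. Of 10 immediate early and stress genes, 5 were 2-fold higher in the XY pool, and 3 after centring, beside 11.2% and 6.41% of all loci. *JUN* was at 111 FPKM in the XY pool and 38.7 FPKM in the XX pool.

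Fewer genes were lower in the XY pool, and besides *XIST* they were led by loci without a gene symbol and by genes with no role in the gonad lists. *PMAIP1*, a regulator of cell death, was at 0.846 FPKM in the XY pool and 14.4 FPKM in the XX pool, but was not called at d37-39 (limma log2 fold change 0.02, adjusted p = 0.97). *GABRA2*, a subunit of the GABA-A receptor, was at 5.42 FPKM in the XY pool and 31.8 FPKM in the XX pool, and its direction held in later controls, with 1.60 to 4.72 FPKM in XY controls and 40.9 to 67.2 FPKM in XX controls of d37-39. *CHRAC1*, a chromatin remodelling subunit, was at 22.9 FPKM in the XY pool and 91.0 FPKM in the XX pool, and had a log2 fold change of -0.13 at d37-39. *ENSCAFG00000002230*, a gene without a symbol on CFA12, turned round: it was at 56.7 FPKM in the XY pool and 275 FPKM in the XX pool, and at 407 to 917 FPKM in XY controls and 7.32 to 139 FPKM in XX controls of d37-39.

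On the X chromosome, 24 of 326 loci were 2-fold higher (7.36%) and 13 lower (3.99%), beside 11.4% and 1.93% of 8490 autosomal loci. The median was 0.04 on the X and 0.21 on the autosomes. The 9 X-linked genes that have a homologue on the Y and a locus on the X had a median of -0.56. *EIF1AX*, a translation factor, was at 15.7 FPKM in the XY pool and 31.6 FPKM in the XX pool, and *KDM6A*, a histone demethylase, at 5.24 and 8.20 FPKM. *CUL4B* alone of the 9 was 2-fold apart before centring, at 10.6 FPKM in the XY pool and 23.7 FPKM in the XX pool.

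Markers of other cells and organs were set side by side. Of 16 germ cell genes found 2 reached 4 FPKM, *SOX17* and *MAEL*, and *DDX4*, *NANOG* and *NANOS2* were listed at 0 in both pools. A listed 0 does not show that a gene was silent, since the locus named *HSPA8*, a chaperone gene that every cell uses, was at 0 in both pools too. Sums over the found members were 21.5 FPKM in the XY pool and 22.5 FPKM in the XX pool for germ cells, 335 and 288 FPKM for endothelium, 36.9 and 32.6 FPKM for macrophages, 163 and 124 FPKM for erythroid cells, 141 and 149 FPKM for mesonephros and kidney (of which *WT1* is a gonad gene too), and 15.7 and 8.91 FPKM for liver. *SLC34A1*, a phosphate carrier of the kidney tubule, was at 4.19 FPKM in the XY pool and 0.313 FPKM in the XX pool. *ELAVL4*, a neuronal RNA-binding protein, marked both pools off from controls of d37-39: it was at 44.6 FPKM in the XY pool and 54.7 FPKM in the XX pool, against 0.366 to 2.62 FPKM in XY controls and 2.97 to 4.27 FPKM in XX controls of d37-39. At d35 in the DSD pedigree it ranged from 6.96 to 39.9 FPKM in XY littermates and from 3.49 to 31.1 FPKM in XX embryos at risk.

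Across all genes, a d34 ratio carried over to single embryos for a minority. Of the 990 loci XY-higher at d34, 975 were tested at d37-39, of which 148 (15.2%) were called higher and 22 (2.26%) lower in XY controls; among all 8790 tested loci of the 8819 the shares called were 4.32% and 3.50%. Of 175 tested loci XY-lower at d34, 29 (16.6%) were called lower and 4 (2.29%) higher. At d44, 129 of 975 (13.2%) and 27 of 171 (15.8%) were called the same way, beside 4.66% called higher and 4.42% called lower among the 8778 tested, and 46 and 11 the opposite way. With 3-fold instead of 2-fold at d34, 71 of 226 tested loci (31.4%) were called higher at d37-39. Seen from d37-39, 148 of 380 loci called higher in XY controls (38.9%) had been 2-fold higher in the XY pool, and 29 of 308 called lower (9.42%) had been 2-fold lower. Over all 8819 loci the shares at d34 were 11.2% higher and 2.03% lower. The median d34 ratios of the 380 and the 308 loci were 0.80 and 0.07. Centred on the median of all loci, these medians lie above and below 0.

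Among 3351 loci with a d34 log2 ratio under 0.32 in size, 3350 were tested at d37-39, of which 76 (2.27%) were called higher and 118 (3.52%) lower in XY controls. Among all 8790 tested loci the shares were 4.32% and 3.50%, so that the share called lower was close to that of all loci. The 118 included *RSPO1*, *NOTUM*, the cholecystokinin receptor *CCKBR* and *CRTAC1*. *CCKBR* was at 166 FPKM in the XY pool and 162 FPKM in the XX pool, and at 5.37 to 11.2 FPKM in XY controls and 71.4 to 87.8 FPKM in XX controls of d37-39. *CRTAC1*, an extracellular matrix protein, was at 372 FPKM in the XY pool and 298 FPKM in the XX pool, and at 14.8 to 45.8 FPKM in XY controls and 182 to 232 FPKM in XX controls. Both were lower in XY controls than in the XY pool by more than in XX embryos. The 76 included *CLU*, *FDX1* and *STC1*, which encodes stanniocalcin, at 3.41 FPKM in the XY pool and 4.22 FPKM in the XX pool.

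The libraries of d35 in the DSD pedigree, 1 day older by label and of other parents, were already unlike the XY pool. *STAR* was at 350, 1491, 1382 and 1970 FPKM in the 4 XY littermates, *CLU* at 419, 1694, 1811 and 1423 FPKM, and *RSPO1* at 13.8, 5.70, 6.09 and 7.27 FPKM. The means were 10.02 times, 12.6 times and 0.193 times the value of the XY pool. *SOX9* was at 52.5, 64.7, 74.1 and 62.3 FPKM, 1.13 times the XY pool on average. The same XY littermate, the first, lay nearest to the XY pool for *STAR*, *CLU* and *RSPO1*, and also for *ELAVL4*, with 39.9 FPKM against 8.05, 8.11 and 6.96 FPKM in the other 3. By the paper's list of embryos the other 3 shared a litter and the first came from another. Embryo and litter therefore cannot be told apart here. Age, litter, breed, pooling and the insertion cannot be told apart between these libraries and the d34 pools.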

How the data were processed

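RNA-seq libraries of canine embryonic gonads were prepared from poly-A RNA without strand information and read single-end, so that reads of a gene and of an antisense partner cannot be separated. The deposited FPKM values were made by the authors with TopHat2 2.0.13, Cufflinks 2.2.1 and Cuffnorm on canFam3 after trimming with cutadapt (1.5 in the submitters' processing notes); Cuffdiff is named there too. They are scaled by transcript length and mapped fragments and are not counts. One deposited table is annotated, with 24581 genes by identifier, and the other, from guided discovery, has 58781 loci whose names come from the deposited assembly.

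Members were the named loci with at least 4 FPKM in either d34 pool; the members, lists and rules were chosen with earlier results of these data known. Of 322 distinct list genes, 242 had a locus of their own name, 22 were found through transcripts that match the annotation exactly (a rule added after seeing the files), 2 were read among the annotated genes, and 56 were not analysed here. Beyond the lists, genes were named as the 15 largest ratios a side, up to 8 reversed and up to 10 later called genes a side, and the study's pathway genes. XY and XX controls entered lmFit and a trended eBayes of limma 3.58.1 (R 4.3.3, data.table, version 1.17.8) as log2(FPKM + 1), for loci where either sex averaged 1 FPKM or more. Tests were two-sided, p-values were adjusted by Benjamini-Hochberg over every locus tested, and the fit was tested on simulated data. A call needed an adjusted p under 0.05, means 2-fold apart and 4 FPKM or more as the mean of either sex. Embryos of 1 litter share parents, so p-values measure the spread between embryos of 1 or 2 litters. Tables were made in Python 3.11.15 with numpy 2.4.6 and pandas 2.3.3. Relative depth came from the commonest value that 1 read can take; reads themselves were not used here. Alternatives were other pseudocounts (0.1 and 4), minimums (1 and 10 FPKM), folds (1.5 and 3), scalings, tables, single days, gestational day as a covariate, no trend and leaving out each replicate at d44. Some genes are not reported here.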

Additional observations from a re-analysis of the deposited data

Results flagged for a closer look

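In the 20 genes described by library, 80 groups of 4 to 9 libraries were looked at for a value far from the others, of which chance alone would pick out about 1 in 20, and 7 values stood apart. In XY controls of d37-39 these were the highest *SOX9* value, 92.8 FPKM, and the lowest *DMRT1* value, 16.9 FPKM. In XX controls of d37-39 they were the highest *SOX10* value, 0.559 FPKM, and the lowest *DMRT1* value, 3.27 FPKM. In XX embryos at risk of d35 they were the highest *SOX10* value, 1.63 FPKM, the highest *DMRT1* value, 9.73 FPKM, and the lowest *NKD1* value, 13.4 FPKM.

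For 26 loci the d34 ratio was 2-fold one way and the control embryos of d37-39 were called the other way, and the 8 with the lowest adjusted p are given here. The difference between the ages was not tested, since d34 has 1 library a side. Higher in the XY pool and lower in XY controls of d37-39 were *HS6ST1* (log2 ratio 1.36 at d34), which sulfates heparan chains, *ENSCAFG00000028777* (1.78), *RASD1* (1.55), *KCNG1* (1.21), *TENM3* (1.16), the hedgehog pathway factor *GLI3* (1.12) and *NLGN2* (1.252). The reverse was seen for *LYRM5* (-1.20 at d34). *HS6ST1* was at 92.3 FPKM in the XY pool and 35.4 FPKM in the XX pool, and at 20.7 to 34.6 FPKM in XY controls and 104 to 115 FPKM in XX controls of d37-39.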

How the results depend on the processing

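Counts of XY-higher loci other than 990 by more than 1.5 times were 607 with a pseudocount of 4, 565 centred on the median, 1827 over all loci, 2454 at 1.5-fold, 234 at 3-fold and 552 centred by gene density (an alternative chosen after seeing the data). Those of XY-lower loci other than 179 were 92, 363, 1043, 769, 49 and 282 under the same settings, and 475 in the annotated table. XY-higher loci called the same way at d37-39, 148 in number, became 231 at 1.5-fold and 71 at 3-fold. XY-lower ones, 29, became 13 with a pseudocount of 4, 19 with a minimum of 10 FPKM, 59 over all loci, 56 at 1.5-fold and 6 at 3-fold. The changes with fold, pseudocount, minimum and loci used follow from how many loci each admits; that of the annotated table was not tested. Without any 1 replicate of d44 the calls stayed at 722 to 843 higher and 674 to 712 lower.

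The d34 ratios of named genes were marked as moved in 123 checks and as the same in 369. Centring lowers every ratio by 0.20, so a ratio marked as the same did not always keep its exact value. Of the moves, 71 came with centring, 46 with a pseudocount of 0.1 and 6 in the annotated table. A pseudocount cannot change the sign of a ratio, and centring by 0.20 cannot turn a 2-fold one round, so neither could test the direction. For the genes read in the annotated table, no 2-fold ratio of a named gene changed sign. At d37-39, tests of named genes under the alternatives kept their side of the call in 1074 cases, lost it in 59 and gained it in 13; of the losses 30 came with d37 alone and 26 with d39 alone, which are 3 against 3. Counts at d34 carry no replicate error, and low values in the XY pool rest on few reads. The labels match no XY embryo to a single XX embryo, so embryos were not paired one by one. Day and litter coincide at d37-39, so the fit with day as a covariate is also a litter block, and it called 733 higher and 511 lower, beside 733 and 510.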

Other observations

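Both *NPY* and *PRSS56*, named here after their values were seen, were at levels in the XY pool that no later control reached. *NPY*, a neuropeptide, was at 50.8 FPKM in the XY pool and 4.16 FPKM in the XX pool, and at 1.55 to 4.35 FPKM in XY controls and 0.411 to 2.87 FPKM in XX controls of d37-39. *PRSS56*, a serine protease, was at 31.8 FPKM in the XY pool and 1.12 FPKM in the XX pool, and at 0.448 to 4.04 FPKM in XY controls and 1.16 to 1.61 FPKM in XX controls of d37-39. In the first XY littermate of d35 they were at 25.6 and 18.5 FPKM. Neither was called between XY and XX controls of d37-39 (limma adjusted p = 0.081 for *NPY* and 0.96 for *PRSS56*).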
